A study of Komagataella phaffii with 15 samples.

Results

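The return of wild-type *K. phaffii* from slow to fast growth was described by setting the libraries of sampling point S5 against those of S3. All genes were kept that reached at least 10 normalized counts in 3 or more of the 6 libraries, which left 5311 of the 5341 genes in the table. In this comparison a normalized count is a gene's number of reads divided by a scaling factor of its library. Back at the fast growth rate, 124 genes were lower and only 3 were higher than at slow growth, where a call required both an adjusted p below 0.05 and a change beyond 1 on the log2 scale. *FLO11* was the only *FLO* family gene among them, and fell to between 15.3 and 21.7 TPM from between 38.0 and 79.0 TPM. TPM divides reads by the deposited effective length of a transcript and scales every library to the same total.

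The study grew *K. phaffii* CBS7435, a methylotrophic yeast used for protein production, in glucose-limited chemostats and sequenced poly-A RNA of 15 samples in 5 groups of 3. The wild type was sampled at the initial fast growth rate of 0.1 per h (S1), after the switch to 0.05 per h (S3) and after the switch back to 0.1 per h (S5), each after 5 residence times. A *flo8Δ* strain, in which the start of the *FLO8* reading frame and the sequence just upstream of it were removed, was sampled at S1 and S3. The labels number the replicates but do not say that they came from separate cultures, whereas the study calls them biological replicates, so the p-values measure the spread between these samples. The same culture was taken from S1 to S3 and S5, yet S3 and S5 were compared as independent groups.

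In a chemostat the rate at which fresh medium flows in sets the growth rate, and slow growth means a tighter limitation for glucose. Flocculins, the products of *FLO* genes, are cell wall proteins through which yeast cells adhere to each other or to surfaces. In *S. cerevisiae*, Flo11 is needed for the filamentous forms of growth, and Flo8 is a transcriptional regulator of *FLO* genes. In *K. phaffii*, slow growth in chemostats is known to bring out elongated, pseudohyphal cells. By its microscopy, the study reports about the same share of such cells in the wild type at the end of slow growth and at S5. Bulk RNA alone cannot separate fewer cells of such a form from less RNA per cell.

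The 6 libraries held between 8933682 and 9364015 reads. The first principal component carried 69.3% of their variance and separated S3 from S5. The second carried 21.9% and set replicate 3 of S5 apart from the other libraries. The SD over genes of the log2 difference to that library was 0.29 and 0.32 for the other S5 libraries, against 0.15 between those and 0.12 to 0.22 within S3. *FLO100*, *FLO300* and *FLO5-1*, described next, had their most extreme values in that library, and their values are given with and without it.

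The 13 *FLO* family genes showed no common direction. By limma on log2(normalized count + 1), with p-values adjusted over all 5311 genes by the method of Benjamini and Hochberg, 2 members fell, 1 rose and 10 did not pass an adjusted p of 0.05. These 3 are 23.1% of the family, where 38.8% of all tested genes passed the same threshold. The median log2 fold change of the family was 0.13, against −0.0019 over all tested genes. The summed level of the family was 5842, 6039 and 6083 TPM at S3 and 6233, 5100 and 5132 TPM at S5, so that the groups overlapped. With 3 libraries against 3, an exact permutation test of a single value cannot give a two-sided p below 0.1.

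**Figure D1:**
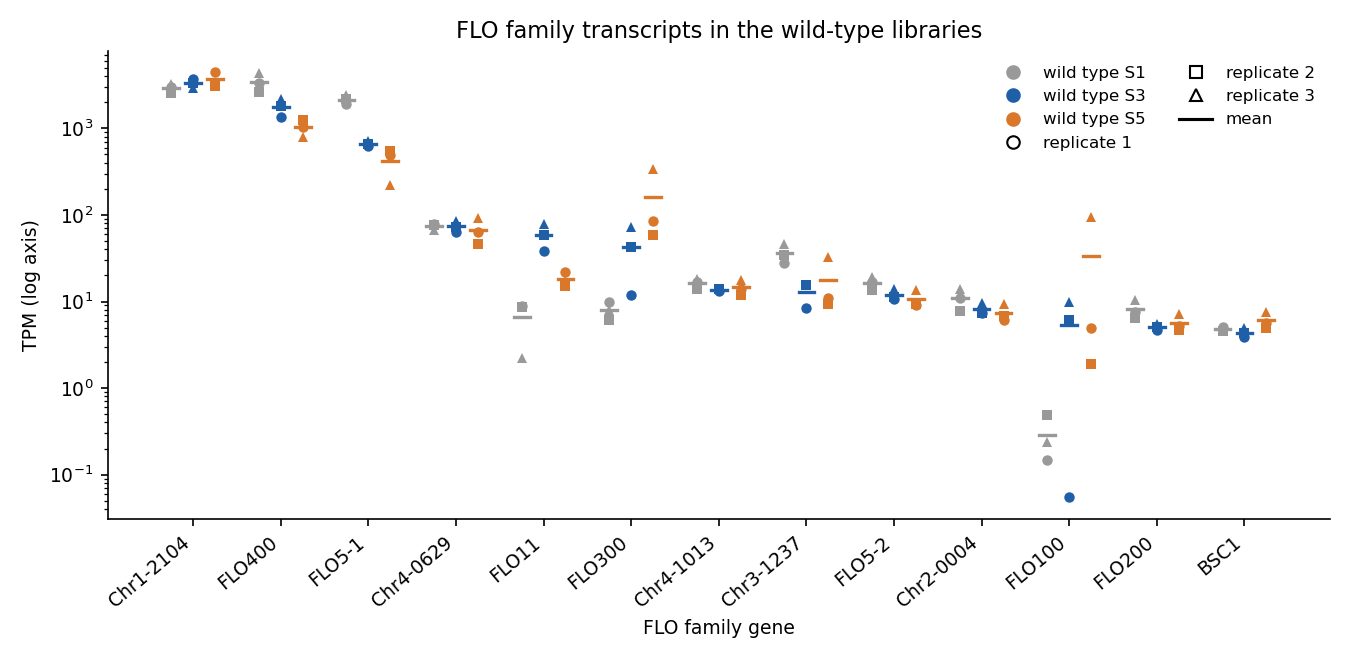
Level of each of the 13 *FLO* family genes in TPM on a log axis, in the wild-type libraries at S1 (grey), S3 (blue) and S5 (orange). Symbols mark the replicates and short lines the means. *FLO11* falls to between 15.3 and 21.7 TPM at S5, and replicate 3 of S5 stands far above the other libraries for *FLO100* and *FLO300*.

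*FLO11* (PP7435_Chr2-0267), the putative homolog of the *S. cerevisiae* flocculin of filamentous growth, had 38.0, 59.3 and 79.0 TPM in replicates 1 to 3 at S3. At S5 it had 21.7, 15.3 and 17.4 TPM. All 3 values at S5 were below the lowest one at S3. The log2 fold change was −1.58 (SE 0.24, adjusted p = 0.0016 by limma), a level 2.98 times lower after the return to fast growth. With each of the 6 libraries left out in turn, it stayed between −1.84 and −1.34 and was called each time. In the estimated counts of the strand-specific run, which hold 0.81% to 3.78% of its reads, the direction was opposite (0.47), and on the remaining reads it was −1.66. At S1, before the slow phase, *FLO11* had 8.8, 8.6 and 2.2 TPM, so the S5 values lay between those of S1 and S3 without overlapping either group.

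*FLO400* (PP7435_Chr4-0865) was among the most abundant members. It had 1349, 1815 and 2166 TPM at S3, and 1031, 1263 and 794 TPM at S5. All S5 values were below all S3 values in TPM, but the normalized counts of the 2 groups overlapped. It fell by 0.71 on the log2 scale (SE 0.23, adjusted p = 0.039 by limma), less than the fold required for a call. The test was not passed without S3 replicate 2 (adjusted p = 0.12), without S3 replicate 3 (0.14) or without S5 replicate 1 (0.083). At S1 the gene had 3312, 2669 and 4312 TPM, above every S3 and S5 library. In the wild type its level in TPM was thus lowest in the last samples and not at slow growth.

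*FLO5-1* (listed in the files as PP7435_Chr1-1389), 1 of 2 family members named for their similarity to *S. cerevisiae* Flo5, had the same order of groups. Its levels were 628, 657 and 714 TPM at S3, and 491, 546 and 222 TPM at S5. The S5 libraries lay below the S3 libraries, and replicate 3 of S5 was the lowest. Because of that spread, the log2 fold change of −0.70 did not pass the test (SE 0.33, adjusted p = 0.13 by limma). Without S5 replicate 3 the change was smaller, −0.24, but passed (adjusted p = 0.024). At S1 *FLO5-1* had 1893, 2167 and 2409 TPM, above all later wild-type libraries.

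*FLO300* (PP7435_Chr4-1020) and *FLO100* (PP7435_Chr1-1587) varied more between replicates than any other members. *FLO300* had 11.8, 42.8 and 72.2 TPM at S3, and 84.9, 58.2 and 340 TPM at S5. The groups overlapped, and the log2 fold change of 1.91 did not pass the test between independent groups (SE 0.73, adjusted p = 0.071 by limma). All S1 libraries had less, between 6.2 and 9.8 TPM, than any S3 or S5 library. *FLO100* had 1, 110 and 168 reads at S3, and 94, 36 and 1626 reads at S5. In TPM its values were 0.055, 6.1 and 9.8 at S3 against 5.0, 1.9 and 94.1 at S5. The log2 fold change was 2.44 with a standard error of 1.83 (adjusted p = 0.32 by limma), and it was 0.85 without S5 replicate 3 and 0.41 without S3 replicate 1. Without these libraries *FLO300* had log2 fold changes of 1.20 (adjusted p = 0.071 by limma) and 1.18 (0.20). Its values at S5 were higher than at S3 in each of the 3 same-numbered pairs. The call of *FLO300* depended on the fit, since it passed with a replicate block (adjusted p = 0.0014 by limma) and with all 15 libraries in 1 fit (0.013), whereas *FLO100* passed in neither (0.066 and 0.18).

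The other flocculin that passed was *BSC1* (PP7435_Chr1-1549), which carries a Flo11-type domain and was weakly expressed. It had 3.8, 4.3 and 5.0 TPM at S3, and 5.7, 4.9 and 7.6 TPM at S5. Its normalized counts did not overlap, and it rose by 0.53 on the log2 scale (SE 0.14, adjusted p = 0.017 by limma), short of the fold required for a call. The test was not passed without S3 replicate 1 (adjusted p = 0.061) or without S3 replicate 2 (0.064). The S1 values were 5.0, 4.6 and 4.6 TPM, within the range spanned by S3 and S5.

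For the remaining 7 members the difference was smaller than its error allowed to call. PP7435_Chr1-2104, the most abundant member at S3 and S5 by its mean, had 3703, 3329 and 2895 TPM at S3, and 4486, 3123 and 3484 TPM at S5 (log2 fold change 0.22, adjusted p = 0.32 by limma). PP7435_Chr3-1237 had 8.5, 15.3 and 15.3 TPM at S3, and 10.9, 9.4 and 32.8 TPM at S5, again with the highest value in S5 replicate 3. At S1 its level was 27.9 to 46.0 TPM, higher than in all but 1 later wild-type library. *FLO5-2* (listed in the files as PP7435_Chr3-1228), *FLO200* (PP7435_Chr3-1226), PP7435_Chr2-0004, PP7435_Chr4-0629 and PP7435_Chr4-1013 had log2 fold changes between −0.11 and 0.21, with adjusted p-values from 0.30 to 0.76 by limma. The direction of PP7435_Chr2-0004, PP7435_Chr3-1237 and PP7435_Chr4-0629 depended on single libraries. In *FLO5-2*, *FLO200* and PP7435_Chr4-1013, between 75.3% and 97.6% of the reads were also in the authors' strand-specific estimated counts, which held 5.26% to 6.11% of all reads, and reads of overlapping transcripts were not told apart.

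*FLO8* itself (PP7435_Chr4-0252) had 33.2, 34.4 and 33.5 TPM at S3, and 30.7, 25.1 and 25.5 TPM at S5. Every S5 value was below every S3 value, with a log2 fold change of −0.25 that did not pass the test (SE 0.10, adjusted p = 0.076 by limma). *ACT1* (PP7435_Chr3-0993), which encodes actin, had 1558, 1640 and 1606 TPM at S3, and 1594, 1495 and 1760 TPM at S5 (log2 fold change 0.08, adjusted p = 0.50 by limma). Relative to *ACT1*, the ratio of mean TPM between S5 and S3 kept its direction for all 13 *FLO* family genes.

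Across all genes, the calls covered 2.33% of tested genes in the lower direction and 0.0565% in the higher one. On the normalized counts, this imbalance lay more in the size of the changes than in the number of genes that moved. With the adjusted p alone, 957 genes (18.0%) were higher and 1104 (20.8%) were lower at S5, so 46.4% of the 2061 genes were higher. On log2(TPM + 1) the median over all genes was −0.072 and the share higher was 32.3%, so on that scale the numbers of genes were unbalanced too. Of the genes that rose, 780 changed by at most 0.5 on the log2 scale, 174 by 0.5 to 1 and 3 by more. Of those that fell, 664 changed by at most 0.5, 316 by 0.5 to 1 and 124 by more. The last gene inside the fold threshold had a log2 fold change of −1.001 and the first outside it −0.998.

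**Figure D2:**
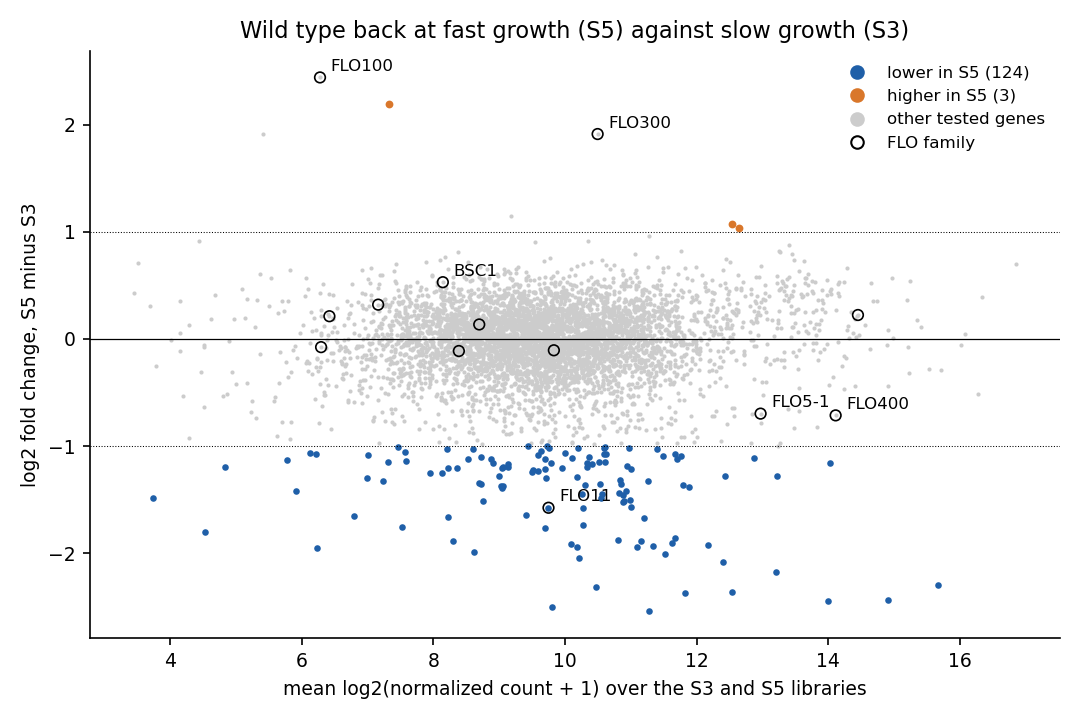
Log2 fold change, S5 minus S3, of the 5311 tested genes against their mean log2(normalized count + 1) over the 6 libraries. Blue points are the 124 genes called lower, orange points the 3 called higher, circles the *FLO* family, and dotted lines the fold threshold of 1. Called falls occur in genes with mean levels of 7.80 to 18187 TPM at S3, while called rises are few.

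The 124 genes that fell had a median log2 fold change of −1.29. In 39 it was beyond −1.5 and in 12 beyond −2. Their mean levels at S3 ran from 7.80 to 18187 TPM with a median of 121 TPM, where the median tested gene had 58.7 TPM. At S5 they ran from 2.22 to 3899 TPM with a median of 45.2 TPM. In 123 of the 124 every S5 library was below every S3 library, a pattern that 26.3% of all tested genes showed and that the call itself favours. The deposited tables pair no gene names with these IDs, and none of the IDs matched the available reference annotation, so the functions of these genes are not given here.

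PP7435_Chr1-0847 had the largest fall. It had 630, 780 and 904 TPM at S3, and 129, 107 and 139 TPM at S5, a log2 fold change of −2.54 (SE 0.12, adjusted p = 5.4e-06 by limma). PP7435_Chr2-2397 followed, with 1269, 1195 and 1248 TPM at S3, and 239, 193 and 194 TPM at S5 (log2 fold change −2.50, SE 0.10, adjusted p = 3.9e-06 by limma). In both genes the replicates lay close together compared with a change of more than 5-fold. The most abundant of the 124 in TPM, though not in reads, was a transcript of 147 bases. It had 18408, 18265 and 17888 TPM at S3, and 4105, 2875 and 4718 TPM at S5 (log2 fold change −2.18, SE 0.14, adjusted p = 2.7e-05 by limma). These 3 falls turned in the estimated counts, at most 12.8% of the reads of these genes.

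The 3 genes that rose were of unlike kinds. PP7435_Chr4-1018, close to *FLO300* by its number, was rare and variable. Its levels were 1.4, 6.1 and 8.7 TPM at S3, and 13.2, 9.8 and 50.1 TPM at S5, with the largest value again in S5 replicate 3. It rose by a log2 fold change of 2.19 (SE 0.72, adjusted p = 0.041 by limma), and the call was lost without S3 replicate 1, S3 replicate 2 or S5 replicate 1 (adjusted p = 0.10, 0.074 and 0.066). At S1 it had 0.9, 0.4 and 0.5 TPM.

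The other 2 risers were abundant, and their S5 levels lay nearer to those of S1 than to those of S3. PP7435_Chr1-0701 had 665, 705 and 707 TPM at S3 and 1320, 1662 and 1216 TPM at S5, beside 1459, 1745 and 1574 TPM at S1 (log2 fold change S5 minus S3 1.08, SE 0.14, adjusted p = 0.00087 by limma). The third, a transcript of 1272 bases, had 328, 324 and 323 TPM at S3 and 618, 655 and 634 TPM at S5, beside 675, 628 and 705 TPM at S1 (log2 fold change 1.04, SE 0.08, adjusted p = 4.5e-05 by limma). Without S5 replicate 2 only 1 gene was called higher, and without S5 replicate 3 there were 5.

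The 124 genes took up 6.42%, 6.70% and 6.88% of all TPM in the S3 libraries. At S5 they took up 1.97%, 1.57% and 2.08%, which describes the genes chosen and is no test of them. At S1 the shares were 3.29%, 4.02% and 1.67%. Replicates 1 and 2 of S1 thus lay above all S5 libraries, and replicate 3 of S1 lay within their range. That library was the lowest of the S1 libraries for 104 of the 124 genes. The share over all tested genes was not computed, so this count cannot be read as particular to the 124. Replicate 3 of S1 was also shallower, with 4632193 reads against 10843287 and 10300371, and the part of depth in its lower levels was not tested. The mean level at S1, with replicate 3 included, lay between those of S3 and S5 for 113 of the 124, below S5 for 9 and above S3 for 2. The 124 were chosen for a large gap between S3 and S5, which favours a position inside it. The share over all tested genes was not computed. S5 and S1 were not compared by a test, because S3 against S1 and S5 against S1 share libraries with S5 against S3.

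**Figure D3:**
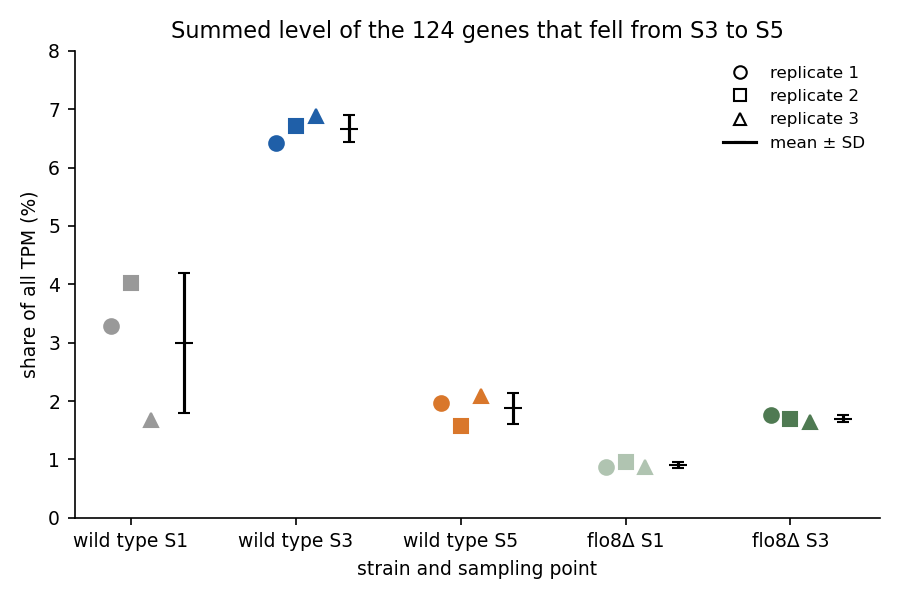
Summed level of the 124 genes that fell from S3 to S5, as a percentage of all TPM, in each of the 15 libraries. Symbols mark the replicates, and the bars beside them give the mean ± SD of 3 libraries. The wild type at S3 stands highest at 6.42% to 6.88%, S5 lies between 1.57% and 2.08%, and replicate 3 of S1 lies with S5. The *flo8Δ* libraries lie between 0.87% and 0.96% at S1 and between 1.65% and 1.76% at S3.

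How far these genes depend on Flo8 was read from libraries that take no part in S5 against S3, the wild type and the *flo8Δ* strain at S1. The level of *FLO8* does not check the deletion, since most of its transcript remains, and it had 24.1 to 31.9 TPM in the *flo8Δ* libraries at S1 and 29.6 to 34.8 TPM at S3. *FLO5-1*, in contrast, had 44.1 to 50.7 TPM in all *flo8Δ* libraries, against at least 222 TPM in every wild-type library. Between the strains at S1, limma called 135 of 5306 genes higher in the wild type (2.54%) and 34 lower (0.641%).

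Of the 124 genes that fell on the return to fast growth, 122 were tested between the strains and 60 (49.2%) were called higher in the wild type than in *flo8Δ* at S1. Only 1 was called lower. Their median log2 difference between the strains was 1.02, with quartiles of 0.68 and 1.69, and over all tested genes the median was at 0.00. Read the other way, the 60 genes were 44.4% of the 135 that were higher in the wild type at S1, and the median log2 fold change of those 135 from S3 to S5 was −0.90. For the 34 genes that were higher in *flo8Δ*, that median was 0.38.

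S1 replicate 3 of the wild type, which stood apart in the summed level, bears on this result. Without it, an alternative chosen after seeing the data, 159 genes were called higher in the wild type at S1 (3% of those tested). They contained 82 (67.2%) of the 122 genes that fell. The median log2 difference of the 122 was then 1.29.

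**Figure D4:**
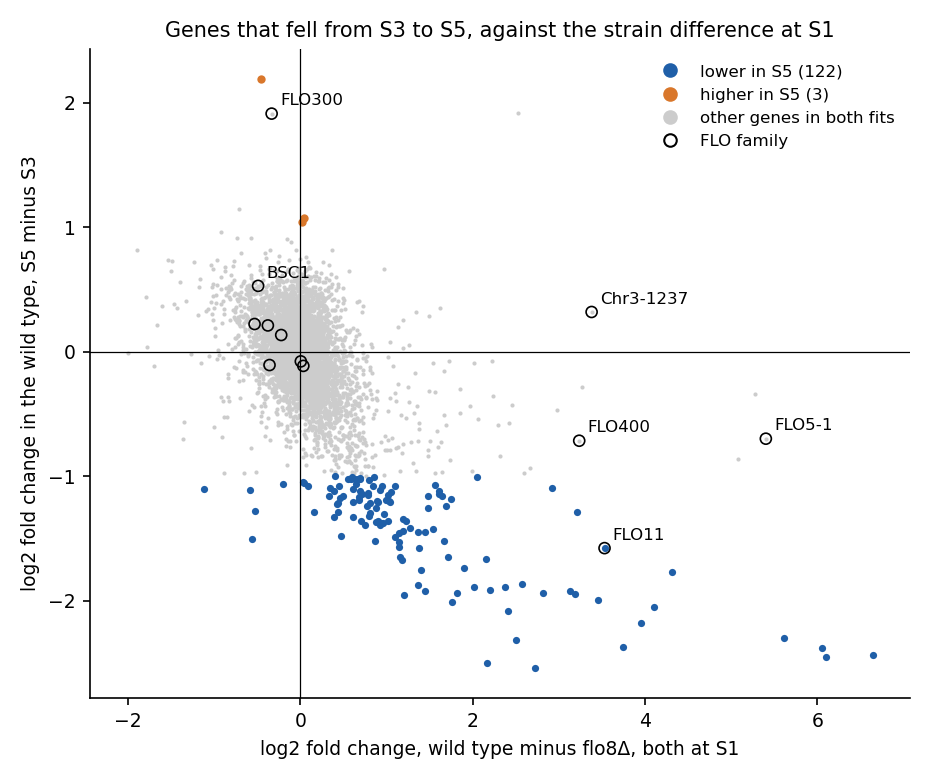
Log2 fold change in the wild type, S5 minus S3, against the log2 difference between the wild type and *flo8Δ* at S1, for genes tested in both. Blue points are the 122 tested genes that fell, and 60 of them were called higher in the wild type at S1. *FLO11* is among these 60, while *FLO5-1* and *FLO400* lie to the right without a called fall.

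Nearly all of the largest falls were in such genes. Of the 12 genes with a log2 fold change beyond −2, 11 were called higher in the wild type than in *flo8Δ* at S1. The exception, PP7435_Chr2-2397, had 312, 669 and 55.3 TPM in the wild type at S1 and 40.2, 51.9 and 49.4 TPM in *flo8Δ* (log2 difference 2.16, SE 0.77, adjusted p = 0.063 by limma). Without S1 replicate 3 all 12 were called. The most abundant faller, of 147 bases, had only 329 to 398 TPM in *flo8Δ* at S1, far below the 2875 TPM that was its lowest value in the wild type at S5. In 88 of the 124 genes every S5 library was above every *flo8Δ* library at S1 in TPM, as in 13.9% of all tested genes. Against the *flo8Δ* libraries at S3 this held for 65 of the 124, and for 12.7% of all tested genes.

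The *flo8Δ* strain also gave its own difference between fast and slow growth, S1 minus S3, from libraries with no part in S5 against S3. It is not the same contrast, since its fast samples came before the slow phase. In *flo8Δ*, 12 of 5307 genes were called higher (0.226%) and 17 lower (0.32%) at the fast rate. Of the 124 genes that fell in the wild type, 121 were tested in *flo8Δ*. None was called higher and 8 were called lower, with a median log2 difference of −0.17 against 0.00 over all tested genes. With the adjusted p alone, 46 of the 121 were lower and 4 higher, where 14.7% and 16.8% of all 5307 genes were. The summed level of the 124 was nonetheless lower at the fast rate in *flo8Δ* too, at 0.90% ± 0.05 of all TPM at S1 against 1.70% ± 0.06 at S3 (SD, n = 3 each), without overlap. The 8 genes called lower, which were chosen on these libraries, summed to 0.37% to 0.44% at S1 and 0.95% to 1.09% at S3, so that they held most of this difference. These 8 had log2 differences of −2.23 to −1.003 in *flo8Δ* and −1.95 to −1.10 in the wild type, and 3 of them were among the 60 genes higher in the wild type at S1.

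**Figure D5:**
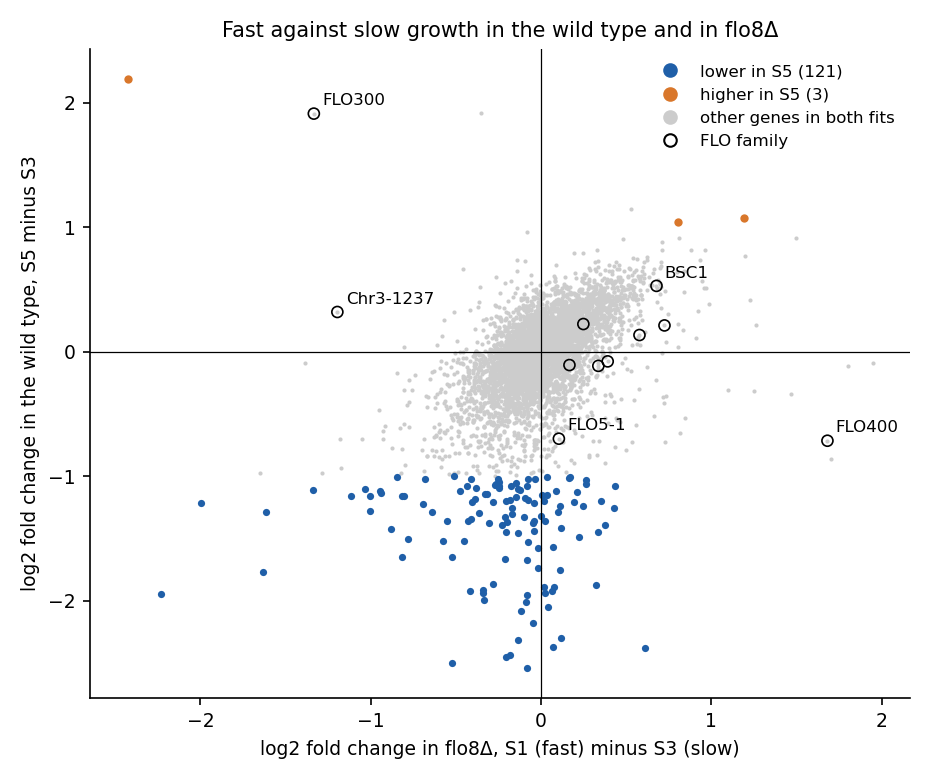
Log2 fold change in the wild type, S5 minus S3, against that of *flo8Δ*, S1 minus S3, for genes tested in both. Most of the 121 blue points, the genes that fell in the wild type, lie near 0 on the horizontal axis, where their median is −0.17. *FLO400* and *FLO300* lie on opposite sides of 0 in the 2 contrasts, whose fast samples are S5 in the wild type and S1 in *flo8Δ*.

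The difference between these contrasts, S5 minus S3 in the wild type less S1 minus S3 in *flo8Δ*, was tested with the 12 libraries in 1 limma fit. The fast samples in it differ in history as well as in strain. Over 5317 genes, 100 (1.88%) had a lower fast against slow difference in the wild type, by a log2 value beyond 1, and 4 (0.0752%) a higher one. Of the 124 genes that fell, 73 were among the 100. Since the 124 were chosen on wild-type libraries that enter this fit, the 73 are a description and no independent test. The 12 largest falls were all among the 73, with log2 fold changes of −2.54 to −2.01 in the wild type and −0.52 to 0.61 in *flo8Δ*, where none passed an adjusted p of 0.05.

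The 2 abundant risers behaved alike in direction in both strains. In *flo8Δ*, PP7435_Chr1-0701 had 1498, 1467 and 1368 TPM at S1 and 628, 709 and 720 TPM at S3 (log2 fold change 1.19, SE 0.07, adjusted p = 4.8e-07 by limma). The test of the difference between the strains gave −0.10 (SE 0.16, adjusted p = 0.75 by limma). For the transcript of 1272 bases the log2 fold change in *flo8Δ* was 0.80 (SE 0.06, adjusted p = 5.2e-06 by limma), and the difference was 0.25 (SE 0.09, adjusted p = 0.098 by limma). PP7435_Chr4-1018, in contrast, was lower at the fast rate in *flo8Δ*, with 0.7, 0.7 and 0.9 TPM at S1 and 4.4, 5.2 and 4.4 TPM at S3 (log2 fold change −2.43, SE 0.23, adjusted p = 2.9e-05 by limma). The difference between the contrasts was 4.63 (SE 0.81, adjusted p = 0.0017 by limma), for a gene chosen on its rise in the wild type. It does not compare the strains alone, since the fast samples were S5 in the wild type and S1 in *flo8Δ*. At S1 the wild type had 0.4 to 0.9 TPM of this gene, below its S3 libraries (1.4 to 8.7 TPM), the same direction as in *flo8Δ*.

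By position, the genes that fell were spread over all 4 chromosomes, with 39 of 1618 tested genes on chromosome 1 (2.41%), 23 of 1354 on chromosome 2 (1.70%), 34 of 1284 on chromosome 3 (2.65%) and 28 of 1044 on chromosome 4 (2.68%). None of the 11 tested mitochondrial transcripts was called, and 10 of them had a log2 fold change above 0. Genes are numbered along each chromosome, and 31 of the 124 had a directly neighbouring number that was also called lower. Counted from each of the 124 in turn, 32 of 204 tested neighbours (15.7%) were called lower, against 2.33% of all tested genes. In this count adjacent called genes enter from both sides, so it is not a count of distinct genes. The longest run held 3 genes. Whether reads of overlapping genes are shared between such neighbours was not tested. The median annotated length of the 124 was 1137 bases, close to the 1176 bases of all tested genes.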

How the data were processed

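The authors sequenced poly-A RNA, trimmed the reads with Trim Galore 0.4.2, ran kallisto 0.43.1 against CBS7435 transcripts and normalized each pair of groups with DESeq2 1.14.1. The deposited signal values are these normalized counts, and their strand setting is not given in the sources used here. The deposited estimated counts per library come from a strand-specific kallisto run and hold 5.26% to 6.11% of the reads in the 6 libraries; the deposited lengths and effective lengths served for TPM. No column was left unused (0). Every normalized count was a whole multiple of its library's step within 0.01 reads. For the strains at S1 and for *flo8Δ* at S1 and S3, this held after multiplying by a factor per gene from the effective lengths. The recovered reads gave depth, TPM and the count-based alternatives.

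Genes with at least 10 normalized counts in 3 libraries were tested with limma 3.58.1 (trended) on log2(normalized count + 1), on 3 against 3 libraries taken from the labels, and called where the adjusted p was below 0.05 and the change beyond 1 on the log2 scale. The same fit served the *flo8Δ* strain and the strains at S1; the difference between responses used recovered reads of 12 libraries. Alternatives used edgeR 4.0.16 (rounded estimated counts) and DESeq2 1.42.0, and the methods were tested on simulated data. Named genes were the 13 *FLO* genes, *FLO8*, *ACT1* and the 12 largest changes in each direction, of which few are printed by ID. The members and lists were chosen with earlier results of these data known. Of the IDs, 0 matched the 5040 genes of the reference annotation (GS115, ASM2700v1), so lists of other pathways could not be matched and are not reported. *FLO5-1* and *FLO5-2* are listed in the files with another chromosome digit than the study prints and were matched by tag number and level.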

Additional observations from a re-analysis of the deposited data

Results flagged for a closer look

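The difference between fast and slow growth in the wild type (S5 minus S3) and in *flo8Δ* (S1 minus S3) itself differed between the strains, by the limma fit of 12 libraries, for 3 *FLO* family genes. *FLO400* had a log2 fold change of −0.71 in the wild type and 1.68 in *flo8Δ*, where it had 350, 265 and 403 TPM at S1 and 107, 102 and 131 TPM at S3. The difference was −2.38 (SE 0.29, adjusted p = 7.0e-05). *FLO300* had 1.91 in the wild type and −1.33 in *flo8Δ*, with 9.4, 10.2 and 8.3 TPM at S1 and 27.9, 26.9 and 21.9 TPM at S3, a difference of 3.26 (SE 0.82, adjusted p = 0.018). *FLO11* gave a difference of −2.21 (SE 0.51, adjusted p = 0.011), with at most 0.71 TPM in any *flo8Δ* library. The fast samples of the strains differ in history, since S5 followed slow growth and S1 did not, so this fit cannot tell strain and history apart. At S1 the wild type had 2669 to 4312 TPM of *FLO400*, above every S3 library, and 6.2 to 9.8 TPM of *FLO300*, below every S3 library. With S1 as the fast sample, both genes thus differed from S3 in the same direction in both strains. *FLO11* had 2.2 to 8.8 TPM in the wild type at S1, below every S3 library. The wild type at S1 against S3 was not tested here.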

How the results depend on the processing

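edgeR and DESeq2 on the recovered reads called 120 to 121 genes lower (103 with shrunken fold changes) and 3 higher (2 shrunken), and all of the lower ones were among the 124; with no filter, the stricter filter or a pseudocount of 0.1 there were 122 to 124 lower and 3 higher. The number called higher was 1 on log2(TPM + 1), 5 with all 15 libraries in 1 fit and 6 on reads less the estimated counts. With 1 library left out it ranged from 1 to 5 and the number called lower from 118 to 133, and 100 of the 124 were called each time. In a fit with a replicate block, 124 genes were lower and 6 higher, and *FLO300*, *FLO5-1* and *FLO8* passed an adjusted p of 0.05. Same-numbered libraries deviated from their group means with correlations of 0.43, −0.19 and 0.57, and differently numbered ones with −0.58 to 0.51. Deviations from a mean of 3 libraries depend on each other, so these values cannot decide whether the numbers pair the samples.

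The estimated counts, a small part of the reads, gave 239 lower and 46 higher in 4101 tested genes, with 45 of the 124 among the lower. On them the log2 fold change was 0.47 for *FLO11*, 0.19 for *FLO5-1*, −0.25 for PP7435_Chr1-2104, −0.18 for PP7435_Chr3-1237, 0.15 for PP7435_Chr1-0847, 0.86 for PP7435_Chr2-2397 and 0.32 for the transcript of 147 bases, each against the main direction; the cause was not tested. These counts exceeded 50% of the reads in 13 of the 124 genes, and in 385 (7.25%) of all tested genes. Among the *FLO* family they did so in *FLO5-2*, *FLO200* and PP7435_Chr4-1013. On reads less these counts 134 were lower, 104 of them among the 124, and the direction turned for *FLO200* (−0.22) and PP7435_Chr4-0629 (0.10). Leaving out 1 library gave −0.20 to 0.037 for PP7435_Chr2-0004, −0.20 to 0.62 for PP7435_Chr3-1237 and −0.32 to 0.10 for PP7435_Chr4-0629. Of the 535 other fits of single named genes, 496 kept direction and side of the adjusted p threshold. The fold threshold did not enter this count, so a fit could be among the 496 and still lose the call. PP7435_Chr1-0701 without S5 replicate 2, with a log2 fold change of 0.91, was such a case.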

Other observations

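By the study's map, 8 of the 13 *FLO* family genes lie next to a telomere, and 5 do not, namely *FLO400*, PP7435_Chr4-0629, *FLO11*, PP7435_Chr1-2104 and *FLO5-1*. This grouping was looked at after the values were seen and got no test. In all 8 telomere-adjacent genes, replicate 3 was the highest of the S5 libraries, as it was in 1 of the other 5, PP7435_Chr4-0629. Replicate 3 was the highest S5 library for 41.6% of all tested genes and for 55.6% of the 532 tested genes with a mean below 20 TPM. At S3, replicate 1 was the lowest library for 7 of the 8, against 39.9% of all tested genes. In the same S5 library *FLO5-1* and *FLO400* had their lowest values of the wild-type series, 222 and 794 TPM.

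Among the genes that fell, abundance was concentrated, since the 10 most abundant made up 68.3% of the summed TPM of the 124 at S3. Above 1000 TPM stood 10 of the 124 at S3 and 4 at S5. Mitochondrial transcripts summed to 19810, 18168 and 17436 TPM at S3, and 20196, 20957 and 24664 TPM at S5, with S5 replicate 3 highest.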
